A study of Mus musculus with 6 samples.

Results

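The mRNAs of 9 coagulation and fibrinolysis genes were followed in whole mouse lung: the clotting genes F3, F10 and F13a1, the anticoagulant genes Thbd, Procr and Tfpi, and the plasminogen activation genes Plat, Plau and Plaur. They were chosen by name from the mRNA count table, and all 9 of them were found among its 17973 genes and passed the filter on low counts, as did 15808 genes in all. The libraries were made from total lung RNA of C57BL/6 mice, 3 from controls (C7, C8 and C9) and 3 from mice with silicosis (N129, N136 and N138), a scarring lung disease caused by crystalline silica. Silicosis was produced by placing 8 mg of silica in 40 µL of saline into the trachea once, and lungs were frozen at 90 days. The controls are labelled only as control, and the series text names sterile saline for the comparison samples. The sources used here do not give sex, age or how many mice stand behind a library. The p-values below therefore describe only how these libraries vary, which may be technical.

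Clotting in tissue starts when tissue factor, the product of F3, meets a circulating protease and activates factor X, the product of F10, which leads to thrombin and fibrin. Factor XIII, whose A subunit is encoded by F13a1, crosslinks the fibrin. Endothelium restrains the cascade through thrombomodulin (Thbd) and the endothelial protein C receptor (Procr), which together promote the activation of the anticoagulant protein C, and through tissue factor pathway inhibitor (Tfpi). Fibrin is removed by plasmin, which is released from plasminogen by tissue plasminogen activator (Plat) and by urokinase (Plau), the latter held at cell surfaces by its receptor (Plaur). In the lung, fibrin in the airspaces and its clearance are long-standing topics in the study of injury and scarring.

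Of these genes 5 rose in silicosis (F10, Procr, Plau, Plaur and F13a1), Thbd fell, and F3, Tfpi and Plat did not pass the test (edgeR quasi-likelihood test, adjusted p under 0.05 over all 15808 genes). The strongest changes were in genes that were low in control lung: factor X, the protein C receptor and urokinase were 4.86-fold, 4.01-fold and 3.77-fold higher. Thrombomodulin, by far the most abundant of the set, was at 0.624 of its control level. Calls were common in this comparison. Over all genes tested 15.3% were called higher, 16.5% lower and 31.8% in either direction, and 5.39% were called with a rise of at least 2-fold. In 6 of the 9 genes, the same ones, the silicosis libraries did not overlap the controls, 5 higher and 1 lower; over all genes tested 23.7% were higher and 24% lower without overlap, 47.7% in all. The median log2 fold change was 0.77 over the 9 genes and 0.025 over all genes tested. As the genes were selected with results of these data known, their count is given as a description.

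Sequence upstream of the transcription start was read for the genes with an entry in the RefSeq promoter table of build GRCm38.p6, which is earlier than the GRCm39 build named by the submitters; it held 6 of the 9 genes, with 8 windows. The 250 bases before the start are shown 5′ to 3′ on the gene's strand for F10, Procr and Plaur, which rose, and for F3, which did not pass, so that the upstream sequences can be set beside the measured changes. Capitals mark matches on either strand to the letters TGANTCA, bound by AP-1 factors, and GGGCGG, bound by Sp1.
F10 (chr8:13037058-13037307, plus strand): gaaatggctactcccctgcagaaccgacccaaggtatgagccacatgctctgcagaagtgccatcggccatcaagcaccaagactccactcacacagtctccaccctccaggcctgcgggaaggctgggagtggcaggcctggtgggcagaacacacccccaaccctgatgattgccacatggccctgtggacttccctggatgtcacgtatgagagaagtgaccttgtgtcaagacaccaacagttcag
Procr (chr2:155750967-155751216, plus strand): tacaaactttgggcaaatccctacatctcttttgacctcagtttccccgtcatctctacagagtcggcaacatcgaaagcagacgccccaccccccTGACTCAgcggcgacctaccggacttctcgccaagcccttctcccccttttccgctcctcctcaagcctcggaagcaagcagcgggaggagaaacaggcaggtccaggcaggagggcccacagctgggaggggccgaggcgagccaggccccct
Plaur (chr7:24462233-24462482, plus strand): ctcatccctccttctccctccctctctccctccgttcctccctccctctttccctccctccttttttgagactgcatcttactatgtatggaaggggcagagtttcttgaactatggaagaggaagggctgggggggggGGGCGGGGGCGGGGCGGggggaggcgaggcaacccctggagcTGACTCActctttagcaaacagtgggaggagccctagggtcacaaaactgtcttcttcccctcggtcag
F3 (chr3:121723287-121723536, plus strand): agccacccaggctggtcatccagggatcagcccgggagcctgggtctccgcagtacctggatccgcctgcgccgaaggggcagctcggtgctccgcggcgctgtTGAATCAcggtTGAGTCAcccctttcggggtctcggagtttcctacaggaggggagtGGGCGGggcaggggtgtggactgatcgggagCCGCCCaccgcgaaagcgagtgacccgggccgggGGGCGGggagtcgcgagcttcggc
The AP-1 letters occurred in 3 of the 6 genes: 2 times in F3 (beginning 146 and 135 bases before the start), and 1 time each in Procr (beginning at 154) and in Plaur (at 69). Over all 32851 windows of this length 6.75% held them. Among the genes with these letters, Procr and Plaur rose and F3 did not pass, while F10 and F13a1 rose without them. GGGCGG stood in F3, Plaur and both Tfpi windows, against 32.7% of all windows, and in Plaur 2 of its 3 matches share a base and the other abuts them. A match to the EGR letters GCGNGGGCG, which 4.7% of windows held, overlaps the 2 Plaur matches farther from the start. No NF-kB match was found in the 8 windows, against 3.9% of all windows, so its absence from so few is not unusual. Also scanned were GAGGAA, bound by PU.1 (23.3% of all windows), and TATAAA, the TATA box (12.4%). GAGGAA matched in F13a1, Plaur and Tfpi, and TATAAA only in Tfpi. These are matches of letters and say nothing on binding. For the Plaur window, unlike those of the other 5 genes, the first bases after the start were not found near the beginning of a GENCODE transcript of the gene.

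Among the clotting genes, F10 rose in every silicosis library. Factor X is a vitamin K-dependent protease that is made mainly in liver, and it converts prothrombin to thrombin. Its CPM values (counts per 1000000 after TMM scaling) were 5.96, 8.14 and 6.73 in C7, C8 and C9, and 27.1, 38.0 and 36.2 in N129, N136 and N138. The lowest silicosis library was therefore far above the highest control, with means of 6.94 ± 1.10 and 33.8 ± 5.86 CPM (SD, n = 3 each). The log2 fold change was 2.28 (SE 0.17, edgeR adjusted p = 6.16e-05). Hepatocyte markers were checked beside it. Among the 7 listed in the table, 6 were under 1 CPM on average, Alb included, and their summed level was 7.23 to 10.4 CPM in controls and 6.82 to 9.20 CPM in silicosis. Cyp2e1 made most of that sum, with 5.71 to 8.87 CPM in controls and 5.15 to 6.56 CPM in silicosis. The part of liver RNA in the F10 result was not tested.

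F10 lies between F7 and Proz on the chromosome in the RefSeq gene order, and all 3 rose. F7, the protease that tissue factor binds to begin clotting, went from 10.1, 14.6 and 11.1 CPM in the controls to 19.7, 26.2 and 27.3 CPM in N129, N136 and N138, a log2 difference of 1.03 (SE 0.18, edgeR adjusted p = 0.00279). Proz, protein Z, the cofactor of an inhibitor of activated factor X, went from 4.92, 4.81 and 6.03 CPM to 16.2, 19.1 and 7.73 CPM (log2 fold change 1.45, SE 0.30, adjusted p = 0.00636). The Proz rise was uneven, with N138 close to the controls. The genes beyond them did not pass: Atp11a and Mcf2l on the F7 side had log2 fold changes of 0.31 and -0.21, and Pcid2 and Cul4a on the Proz side -0.02 and -0.07. These neighbours were looked up after the values of F7, F10 and Proz had been seen.

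**Figure D1:**
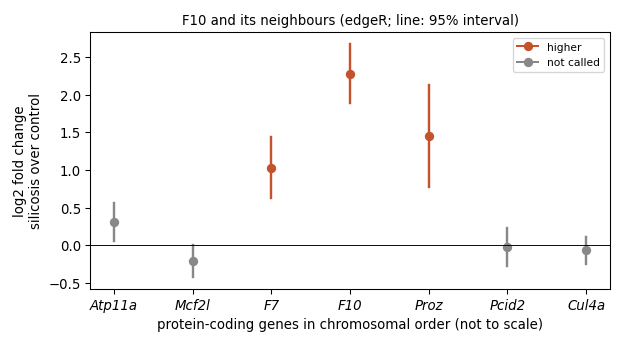
Log2 fold change (silicosis over control) of F10 and the 3 protein-coding genes on either side, in chromosomal order and not to scale; points are edgeR estimates and lines 95% intervals. F7, F10 and Proz, at 1.03, 2.28 and 1.45, lie above the 4 outer genes, which were not called.

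F13a1, expressed by macrophages and by megakaryocytes, the source of platelets, had 19.0, 24.1 and 32.5 CPM in C7, C8 and C9 and 35.9, 32.8 and 63.7 CPM in N129, N136 and N138. The groups hardly separated: N136 stood just above C9, and N138 alone was far higher. The log2 fold change was 0.81 (SE 0.27, edgeR adjusted p = 0.0476). The call ended without C7, C8, N129 or N138, at adjusted p of 0.148, 0.125, 0.0522 and 0.116, and without N138 the log2 fold change was 0.45. With limma-voom the adjusted p was 0.055. Of 9 tested platelet markers 3 were lower and 0 higher, with a summed level of 56.2 to 119 CPM in controls and 41.8 to 58.2 CPM in silicosis, and Gp1bb was under 1 CPM.

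F3, the initiator, did not pass. Its levels were 38.4, 34.9 and 40.5 CPM in C7, C8 and C9 and 41.6, 28.7 and 31.1 CPM in N129, N136 and N138. N129 was the highest of all 6 libraries while N136 and N138 were the lowest, so the groups overlapped. The log2 fold change of -0.17 (SE 0.15, edgeR adjusted p = 0.423) had a 95% interval from -0.50 to 0.17, which does not reach the rise seen in F10.

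**Figure D2:**
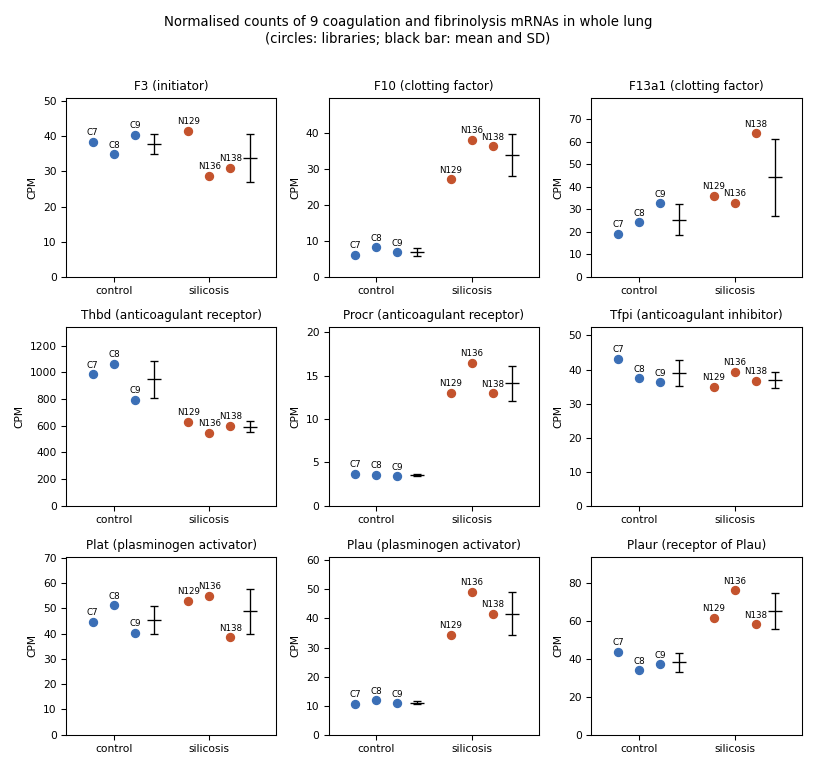
Normalised counts (CPM, linear axes from 0) of the 9 genes in each library; circles are libraries, black bars mean and SD of 3. The silicosis circles of F10, Procr, Plau and Plaur lie above all control circles and those of Thbd below, whereas F3, Tfpi and Plat overlap and F13a1 in N136 (32.8 CPM) barely exceeds C9 (32.5 CPM).

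The genes of 2 receptors of the protein C system, Thbd and Procr, moved in opposite directions in whole lung. Thbd, whose protein turns thrombin from a clotting enzyme into an activator of protein C, had 985, 1065 and 795 CPM in C7, C8 and C9, and 630, 547 and 597 CPM in N129, N136 and N138. Every silicosis library was below every control, with means of 948 ± 139 and 591 ± 42.2 CPM (SD, n = 3 each). The log2 fold change was -0.68 (SE 0.12, edgeR adjusted p = 0.00354). Procr, which presents protein C to the thrombin-thrombomodulin complex, went the other way, from 3.68, 3.54 and 3.37 CPM in the controls to 13.01, 16.5 and 12.9 CPM in the silicosis libraries N129, N136 and N138. The controls lay close together, at 3.53 ± 0.155 CPM, and the silicosis libraries averaged 14.1 ± 2.02 CPM, a log2 difference of 2.002 (SE 0.16, edgeR adjusted p = 8.18e-05). The count ratio of Thbd to Procr, which does not depend on library scaling, was 268, 301 and 236 in the controls and 48.4, 33.2 and 46.2 in N129, N136 and N138. It did not overlap between groups (log2 difference -2.67; two-sided exact permutation p = 0.1, adjusted over 4 ratios 0.133, where 0.1 is the smallest p that 3 against 3 allows).

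Markers of endothelium and of several other cell types were lower in the libraries with less Thbd. Of 12 endothelial markers 9 fell and 0 rose, none was near 0, and their summed level was 4455 to 4773 CPM in controls and 2510 to 2721 CPM in silicosis, a ratio of means of 0.565. Cdh5, the endothelial cadherin, fell from 1307 ± 179 to 527 ± 19.95 CPM and Pecam1 from 838 ± 89.3 to 513 ± 59.4 CPM (SD, n = 3 each; edgeR adjusted p = 0.000118 and 0.00246). Sums of other lists were lower by similar ratios: 0.606 for alveolar type 1 markers (7 of 10 fell), 0.627 for smooth muscle (5 of 8) and 0.686 for mesothelium (4 of 7), with 0 higher in each and no marker under 1 CPM. The platelet sum given above had a ratio of 0.619, with overlap between groups. Fibroblast markers were mixed: 5 of 10 fell and 3 rose, with a ratio of sums of 0.836. The part of these shifts in the Thbd result was not tested, and in whole lung fewer cells of a type and less RNA per cell cannot be told apart. Procr rose while the endothelial, alveolar type 1, smooth muscle and mesothelial sums were lower.

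Tfpi, which blocks the tissue factor complex and activated factor X, did not pass. It had 43.2, 37.4 and 36.3 CPM in C7, C8 and C9 and 34.8, 39.3 and 36.7 CPM in N129, N136 and N138. The groups overlapped, and the log2 fold change of -0.08 (SE 0.11, edgeR adjusted p = 0.619) had a 95% interval from -0.32 to 0.16. The count ratio of F3 to Tfpi, initiator over inhibitor, was 0.889, 0.932 and 1.12 in the controls and 1.195, 0.731 and 0.847 in N129, N136 and N138. It overlapped as well (log2 difference -0.11; two-sided exact permutation p = 0.7, also 0.7 adjusted over 4 ratios), and without N136 the difference was 0.05.

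In plasminogen activation the urokinase genes rose and tissue plasminogen activator did not pass. Plau had 10.6, 11.8 and 10.8 CPM in C7, C8 and C9 and 34.3, 49.2 and 41.6 CPM in N129, N136 and N138. The 3 controls were nearly equal (11.1 ± 0.667 CPM) and all lay far below the silicosis libraries (41.7 ± 7.42 CPM; SD, n = 3). The log2 fold change was 1.91 (SE 0.15, edgeR adjusted p = 6.16e-05). Plaur, the anchor of urokinase on leukocytes and other cells, was already well expressed, at 43.8, 34.1 and 37.1 CPM in the controls, and reached 61.8, 76.3 and 58.3 CPM in N129, N136 and N138. The rise of Plaur was smaller (log2 fold change 0.77, SE 0.14, edgeR adjusted p = 0.00286), with no overlap between groups.

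Plat, the activator released by endothelium, had 44.7, 51.2 and 40.3 CPM in C7, C8 and C9 and 52.9, 54.9 and 38.5 CPM in N129, N136 and N138. N138 was the lowest and N136 the highest of the 6 libraries. The log2 fold change of 0.10 (SE 0.15, edgeR adjusted p = 0.634) had a 95% interval from -0.24 to 0.44. The count ratio of Plau to Plat therefore shifted. It was 0.237, 0.231 and 0.267 in the controls and 0.648, 0.895 and 1.08 in N129, N136 and N138. This count ratio rose by 1.81 on the log2 scale without overlap between groups (two-sided exact permutation p = 0.1, adjusted over 4 ratios 0.133). The longest transcripts differ in length (2342 bases for Plau and 4042 for Plat), so equal counts are not equal levels. Per kilobase of these transcripts the means were 4.72 for Plau and 11.2 for Plat in controls, and 17.8 and 12.1 in silicosis. Which transcripts were expressed was not examined, so the order of the 2 genes depends on the lengths chosen.

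Monocyte and macrophage markers were higher in the same libraries as F10, Plau, Plaur and F13a1. Of 12 markers 8 rose and 1 fell by edgeR, none was near 0, and the summed level was 3306 to 3921 CPM in controls and 5787 to 10291 CPM in silicosis. Lyz2, a lysozyme, made most of this sum (2977 ± 314 and 6595 ± 2413 CPM), and Csf1r, the growth factor receptor of these cells, had 175 ± 15.4 and 223 ± 27.9 CPM (SD, n = 3 each). The Csf1r groups overlapped (C9 at 192 and N129 at 191 CPM), and its call (adjusted p = 0.0469) ended in 7 of 12 alternatives, among them leaving out C7, C8, N136 or N138 (0.107 to 0.162). N136 had the highest marker sum (10291 CPM) and the highest level of F10, Procr, Plau and Plaur, but not of F13a1. Lyz2 made 9366 CPM of that sum, and N136 also had the highest alveolar type 2 sum (25759 CPM). N138 had a lower marker sum than N129 (5787 and 6178 CPM), of which Lyz2 made 4960 and 5460 CPM. Cd14, C1qa and C1qb were also lower in N138 than in N129. The other markers of the list were higher in N138, among them Csf1r (245 and 191 CPM). F10 (36.2 and 27.1 CPM), Plau (41.6 and 34.3 CPM) and F13a1 (63.7 and 35.9 CPM) were higher in N138 than in N129. Procr (12.9 and 13.01 CPM) and Plaur (58.3 and 61.8 CPM) were lower in N138. Of 9 neutrophil markers 4 rose and 0 fell, with sums of 87.4 to 160 CPM and 249 to 393 CPM, and Ly6g and Camp were under 1 CPM. The part of these cells in the results was not tested.

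**Figure D3:**
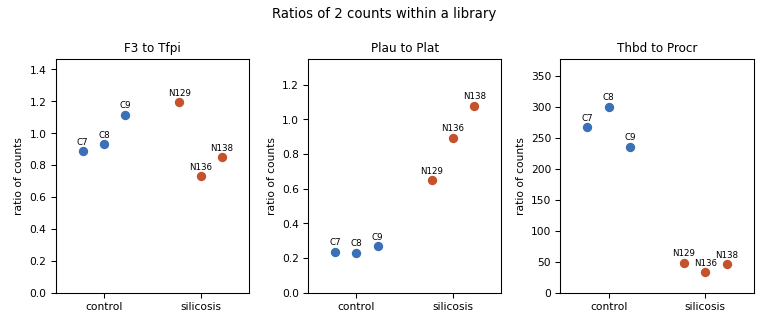
Ratios of 2 raw counts within each library (linear axes from 0), with libraries named. Plau to Plat lies at 0.231 to 0.267 in controls and 0.648 to 1.08 in silicosis, Thbd to Procr falls from at least 236 to at most 48.4, and F3 to Tfpi overlaps.

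Levels were compared between genes per kilobase of the longest GENCODE M21 transcript. The transcripts expressed here were not examined, so the order of the genes depends on this choice of length. In control lung thrombomodulin led with 255 ± 37.2 CPM per kilobase (SD, n = 3). It was followed by F3 at 20.3 and Plaur at 19.1, whose ranges overlapped, then Plat at 11.2 and Tfpi at 9.82, which also overlapped, F13a1 at 6.37 and Plau at 4.72, again overlapping, and by F10 at 2.77 and Procr at 2.19, the lowest. In silicosis Thbd still led with 159 ± 11.3 CPM per kilobase, and Plaur was next at 32.6, clear of F3 at 18.1. From F3 downwards each gene overlapped the next: Plau reached 17.8, F10 13.5, Plat 12.1, F13a1 11.2, Tfpi 9.31 and Procr 8.79 CPM per kilobase. Leaving out Thbd, the lowest and the highest gene lay closer on a log scale in silicosis (8.79 and 32.6) than in controls (2.19 and 20.3), while their difference in CPM per kilobase was larger in silicosis.

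**Figure D4:**
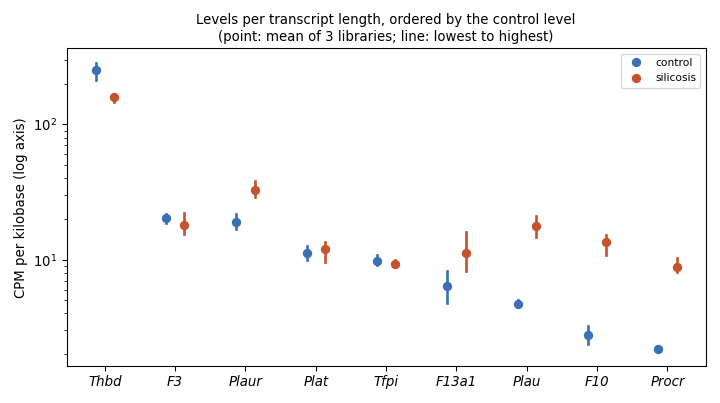
CPM per kilobase of transcript on a log axis, genes ordered by their control mean; points are means of 3 libraries and lines run from the lowest to the highest. Thbd is highest in both groups (255 and 159), and the 3 lowest control genes, Plau, F10 and Procr, at 4.72, 2.77 and 2.19, rise to 17.8, 13.5 and 8.79.

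Of 45 other genes of the pathway, 43 were in the table and 38 were tested. By edgeR 7 rose, 4 fell and 27 did not pass, with a median log2 fold change of 0.20. Over all genes tested 15.3% were called higher, 16.5% lower and 31.8% in either direction, with a median of 0.025. The counts of each list below are to be read beside these shares. Among other clotting factors and fibrinogen chains 1 of 10 rose (F7, above) and 2 fell by edgeR. The number called higher was 2 without C7, 4 without N138 and 3 by DESeq2. F5, the cofactor of activated factor X, had 22.7, 20.4 and 52.4 CPM in C7, C8 and C9 and 10.5, 11.2 and 15.1 CPM in N129, N136 and N138 (log2 fold change -1.38, SE 0.34, edgeR adjusted p = 0.0138). C9, which also had the highest platelet marker sum (119 CPM), set much of that size: without it the value was -0.82 (adjusted p = 0.0143), and the call ended without N129 (0.0505). Vwf, von Willebrand factor of endothelium and platelets, averaged 949 ± 131 CPM in controls and 676 ± 66.9 CPM in silicosis (SD, n = 3), a log2 fold change of -0.49 (SE 0.13, adjusted p = 0.0171). That call ended without C7, C8 or N129, at 0.0533, 0.0729 and 0.0707. Vwf, like Thbd, was lower in the libraries where the endothelial, alveolar type 1, smooth muscle and mesothelial sums were lower, and the part of these in its fall was not tested.

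Among other anticoagulants 2 of 9 rose and 1 fell. Serpina10, the protein Z-dependent inhibitor of activated factor X, rose together with its cofactor Proz, from 1.47, 1.12 and 0.809 CPM in C7, C8 and C9 to 9.62, 4.24 and 2.92 CPM in N129, N136 and N138 (log2 fold change 2.30, SE 0.46, edgeR adjusted p = 0.0052). All 3 silicosis libraries were above the controls, with N129 well above N136 and N138, and without N129 the value was 1.66. Anxa5, annexin A5, had a log2 fold change of -0.31 (SE 0.10, adjusted p = 0.049), and this call ended when any library but N136 was left out, at 0.0696 to 0.173. Of 4 thrombin receptor family genes 0 rose and 1 fell by edgeR, and 2 fell by DESeq2. F2r, the main receptor cleaved by thrombin, had 276, 279 and 270 CPM in the controls and 162, 194 and 160 CPM in N129, N136 and N138, with no overlap (log2 fold change -0.68, SE 0.10, edgeR adjusted p = 0.00117).

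On the fibrinolysis side, 6 genes of a list of plasminogen and cell-surface proteins were tested: Plgrkt, Eno1, Anxa2, S100a10, Lrp1 and Mrc2. By edgeR 2 rose and 0 fell, while 1 was called lower by DESeq2 and 1 by edgeR without C9. Plgrkt, a plasminogen receptor, rose by 0.55 on the log2 scale (SE 0.12, edgeR adjusted p = 0.00781). Eno1, enolase, rose by 1.09 (SE 0.13, adjusted p = 0.000446) but shares 72% of its 50-base windows with other transcripts, so its counts are uncertain. Plasminogen itself, Plg, had between 0 and 2 counts per library and was not tested.

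Serpine2, protease nexin 1, which inhibits urokinase and thrombin, rose by 0.51 on the log2 scale (SE 0.12, edgeR adjusted p = 0.0123). In the vitamin K cycle, which completes the clotting proteases, 0 of 4 genes were called by edgeR, DESeq2 or limma-voom; by edgeR 1 in each direction had an unadjusted p under 0.05, 1 was called higher with upper quartile scaling, and 1 lower without C9. Ggcx, the carboxylase, had a log2 fold change of 0.11 (SE 0.12).

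**Figure D5:**
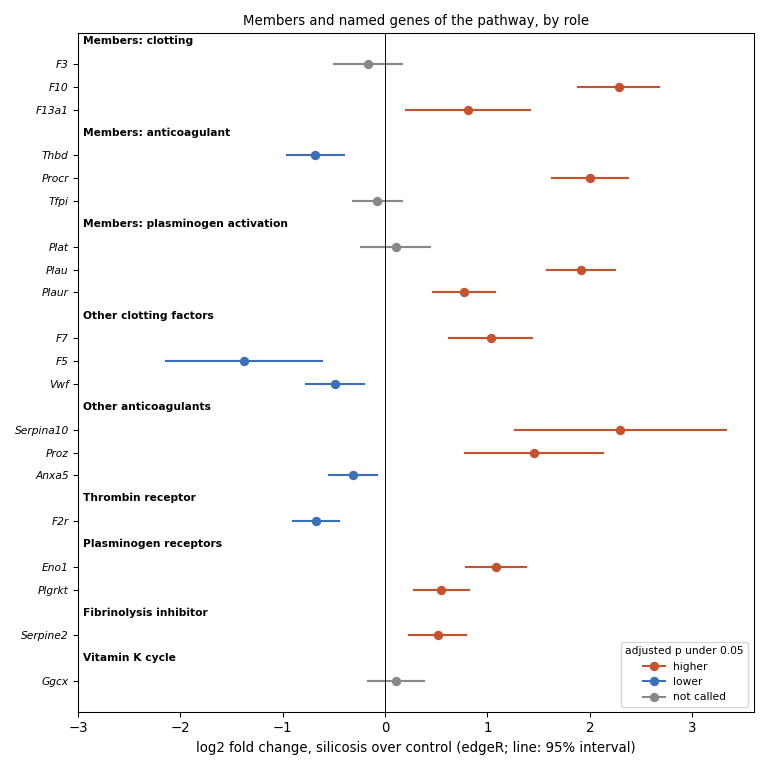
Log2 fold change (silicosis over control) with 95% intervals for the 9 genes and 11 named genes of the pathway, grouped by role and coloured by call. Serpina10, F10, Procr and Plau are the highest (2.30, 2.28, 2.002 and 1.91), and F5, Thbd and F2r are the lowest (-1.38, -0.68 and -0.68).

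The genes whose log2 CPM, centred on its mean, followed each called member most closely over the 6 libraries were listed by the root mean square difference among 15345 genes, as a description. For F10 they were Ms4a6d, Cd300lf and Arg2, with differences of 0.116, 0.145 and 0.159. For Plau they were C3ar1, the receptor of complement C3a, Slc37a2 and Gla, at 0.0776, 0.101 and 0.105. Gla, the lysosomal alpha-galactosidase, was also near Procr (0.098), behind Cyp7b1 and the bradykinin receptor gene Bdkrb1 (0.0875 and 0.0913). For Plaur they were Nuak2, Plac8 and Apoo (0.0484, 0.0778 and 0.0785), and for Thbd Rbm46, Klra7 and the basement membrane collagen gene Col4a4 (0.0472, 0.0514 and 0.0576). Rbm46 and Klra7 averaged only 2.62 and 2.20 CPM. By edgeR Rbm46 was not called (adjusted p = 0.0544), and the Klra7 call (adjusted p = 0.042) ended in 7 of the alternatives. For F13a1 the nearest genes were Slco1c1, Ccl28 and Naip6 (0.147, 0.15 and 0.159), none of which was called by edgeR. Slco1c1 had only 9 to 31 counts per library. DESeq2 called Naip6 (log2 fold change 0.66, adjusted p = 0.0377), where the other alternatives gave adjusted p from 0.0582 to 0.873.

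In the authors' deposited table the log2 fold changes were 2.27 for F10, 1.996 for Procr, 1.91 for Plau, 0.80 for F13a1, 0.76 for Plaur and -0.69 for Thbd, each with an adjusted p under 0.05, as had 32.1% of the genes with one there. The authors' deposited table marks F10, Procr and Plau as up and the other 6 genes as neither up nor down. For F3, Tfpi and Plat the authors' deposited table gives -0.17, -0.09 and 0.10, with adjusted p of 0.446, 0.67 and 0.715.

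As to the series as a whole, the libraries held between 33698920 and 44000748 mRNA counts. Alveolar type 2 markers, which define lung, summed to between 17056 and 25759 CPM in every library. Reads shared with other genes touched the set little: 1.83% of the 50-base windows of F10 and 0 of those of the other 8 genes occur in transcripts of another gene. Exons of 1 other gene, Gm30489, overlap F13a1 on the opposite strand, and without a stated strand setting their reads cannot be told apart.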

How the data were processed

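The authors deposited raw whole-number counts per gene and library, and a comparison table with log2 fold changes, SEs, mean signal, test scores, p-values and adjusted p-values; per the file headers these columns carry DESeq2's names. Build GRCm39, DESeq2 1.36.0, featureCounts 2.0.0, Trimmomatic 0.39, Bowtie2 and HISAT2 appear in the submitters' processing notes, which do not say what each was used for. The annotation and the strand setting are not stated there or in the labels. Counts were fitted with edgeR 4.0.16 in R 4.3.3 (filterByExpr, TMM scaling, two-sided quasi-likelihood F test, Benjamini-Hochberg adjustment over 15808 genes, threshold 0.05). The SE is the log2 fold change over the square root of F, and intervals are at 95%. Within a group libraries differed by more than sampling noise (chi-square per degree of freedom 15 to 79). Groups share no replicate numbers, so no paired fit was made.

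The genes, the lists of pathway genes and markers, and the comparisons were chosen with earlier results of these data known. Named genes are the 9 members, up to 4 called genes of each pathway list (or the most expressed), the 2 most expressed markers of a list, and the 3 genes nearest each member in centred log2 CPM (prior count 2), which are given only for the 6 called members. Not all are discussed, and the results of 1 gene, with 1 of the 4 count ratios, are not reported here. Alternatives were DESeq2 size factors, upper quartile scaling, no filter, DESeq2 1.42.0, limma-voom (limma 3.58.1), a 1.5-fold minimum, each library left out, and, for ratios, 1 added to both counts. The fit was also tested on simulated counts of 15808 genes for this comparison. There edgeR called 83% of 100 genes set to a 2-fold change and 99% of 100 set to 4-fold. Unchanged genes made up 3.7% of the calls. Only these genes were changed in the simulation, whereas 31.8% of genes were called in the data, so the rates need not carry over. Lengths and 50-base windows (every 5 bases) came from GENCODE M21 of GRCm38. The lncRNA and circRNA tables were not used here.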

Additional observations from a re-analysis of the deposited data

How the results depend on the processing

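Across DESeq2 size factors, upper quartile scaling, no filter and DESeq2, the 6 calls among the 9 genes and the 3 genes that did not pass kept their direction and their side of the threshold, and with limma-voom all but F13a1 did (log2 fold change 0.77). Tested against a 1.5-fold minimum, F10, Procr and Plau stayed called, so 3 of the 9 were higher and 0 lower, while Thbd (-0.68), Plaur (0.77) and F13a1 (0.81) did not pass; over all genes 587 were then higher and 448 lower, against 2421 and 2602. Leaving out each library in turn gave F13a1 between 0.45 and 1.03, Tfpi between -0.13 and 0.00066, the positive value without C7, and the log2 difference of the F3 to Tfpi ratio between -0.31 and 0.047, the latter without N136. Scaling moved the median log2 fold change of all genes only between 0.0193 and 0.0381. With 3 libraries a group, exact tests on ratios cannot go below 0.1. Depth limits the 9 genes little, the least counted being Procr in controls.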

Other observations

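Several liver-type clotting genes were present at low levels in these lungs. Fgg, the fibrinogen gamma chain, had 33, 55 and 43 counts in C7, C8 and C9 and 105, 266 and 28 in N129, N136 and N138, so the groups overlapped and it did not pass (edgeR adjusted p = 0.0805). F9, the clotting protease next to factor X in the cascade, had 11, 9 and 4 counts and then 34, 22 and 8, which overlapped as well (adjusted p = 0.109). Klkb1, plasma prekallikrein, had 23, 40 and 28 counts and then 81, 59 and 40, but shares 42.8% of its windows with other genes. It did not pass (edgeR adjusted p = 0.0699). F2 and F11, with log2 fold changes of -0.10 and -0.13, did not pass either.

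The chromosomal neighbours of the other members moved in various ways. Procr lies beside Edem2, which rose by 0.67 on the log2 scale, and Mmp24, which had 0.12 and did not pass. Tfpi, which did not pass, lies between Calcrl and Ctnnd1, with log2 fold changes of -0.40 and -0.89, both called lower. Plau lies beside Vcl, called lower at -0.67, and Camk2g, at -0.03 and not called. Thbd lies beside Cd93, another endothelial surface gene, which had -0.26 and did not pass (adjusted p = 0.209).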
